A study of Mus musculus with 24 samples.

Results

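Notch signaling passes between touching cells. A ligand of the Delta or Jagged family on one cell binds a Notch receptor on its neighbor, the receptor is cut by proteases, and its intracellular part enters the nucleus, where it joins the DNA-binding protein RBPJ (also called CSL) and switches on targets such as the Hes and Hey repressors. In the fetal gonad the pathway is known for its part in keeping progenitors undifferentiated, and it also acts in blood vessels and in the contact between somatic and germ cells. H3K4me3 is a histone mark found at active or poised promoters, H3K27me3 is the mark laid down by the Polycomb complex PRC2 at repressed genes, and a promoter that carries both is called bivalent.

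The 10 Notch genes described here are 3 receptors (Notch1, Notch2 and Notch3), 4 ligands (Jag1, Jag2, Dll1 and Dll4) and 3 targets (Hes1, Hey1 and Hey2). They were chosen by name, and all 10 were found among the 21418 autosomal protein-coding genes of the mouse annotation used (GENCODE release M1, on mm9). Chromatin immunoprecipitation and sequencing (ChIP-seq) of H3, H3K4me3 and H3K27me3 had been done in 2 replicates of 4 sorted supporting cell populations, which gave 24 samples. XY and XX progenitors came from E10.5 gonads of mice that carry the SF1-eGFP reporter, Sertoli cells from E13.5 XY gonads with Sox9-CFP, and pregranulosa cells from E13.5 XX gonads with TESM-CFP, where the labels name them granulosa cells. All were C57BL/6 x CD1 mice with no mutation named beyond the reporter. Each population is the set of cells that its reporter marks, gathered from several embryos, and chromatin of fly S2 cells had been added as a carrier according to the study's methods.

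The data are 8 lists of HOMER peaks, 1 per histone mark and population, and each list was made from both replicates together. A list therefore gives the places at which a mark exceeded H3, and it holds neither the strength of the mark nor a spread between replicates, so no test between populations is possible and every difference below is a difference between single lists. The lists were called from 10162534 tags (H3K4me3) and 6470151 tags (H3K27me3) in XY progenitors, and from 31104760 to 49254553 tags in XX progenitor and Sertoli cells. The depth of the pregranulosa lists is unknown. Peaks that overlap were joined into regions. The pregranulosa H3K27me3 list held no overlapping peaks (12609 peaks, 12609 regions), whereas 74154 Sertoli peaks joined into 13313 regions, so a listed peak is not the same unit in these lists. A promoter was the 4001 bp window of TSS ± 2 kb around the 5′ end of the gene record, marked where a region covered at least 1 bp of it. Where 4 values follow each other without a name, their order is XY progenitor, XX progenitor, Sertoli, pregranulosa.

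Marker genes of the E13.5 cell types differed in H3K27me3 between the E13.5 lists. The study describes the marks of several of them from these same data, among them Sox9, Dmrt1, Fgf9, Foxl2, Wnt4 and Rspo1. They are therefore no independent check of cell identity. Of 5 Sertoli markers, 0 had H3K27me3 in Sertoli cells and 5 had it in pregranulosa cells. Of 5 pregranulosa markers, 5 had it in Sertoli cells and 2 in pregranulosa cells, Foxl2 (4001 bp) and Fst (1284 bp). All 5 gonadal progenitor markers were bivalent in both progenitor lists, so that call also occurred at marker genes of the population itself. H3K4me3 was called at 1, 2, 3 and 3 of 5 germ cell markers, against 64.8%, 66.7%, 65.5% and 67.0% of all autosomal protein-coding promoters. Dazl had H3K4me3 in all 4 populations. H3K27me3 was called at 3, 3, 3 and 2 of the germ cell markers, against 23.6%, 22.8%, 24.2% and 22.1% of all these promoters. Because several Notch genes are also used by blood vessels, 5 endothelial markers were examined. Pecam1, Tek and Tie1 had 0 bp of either mark in all 4 populations, Cdh5 had 1001 bp of H3K4me3 in pregranulosa cells and 0 bp in the others, and Kdr was bivalent in all 4. The part of endothelial or germ cells in the values below was not tested.

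Most of the Notch genes were bivalent. H3K4me3 was called at 9 of the 10 promoters in XY progenitors, 10 in XX progenitors, 10 in Sertoli cells and 9 in pregranulosa cells, against 64.8%, 66.7%, 65.5% and 67.0% of all autosomal protein-coding promoters. H3K27me3 was called at 9, 7, 8 and 8 of the 10, against 23.6%, 22.8%, 24.2% and 22.1%. Both marks were present at 9, 7, 8 and 8 of the 10, against 20.9%, 21.4%, 19.2% and 19.6%. In a sorted population, both marks on the same chromosomes and each mark in different cells cannot be told apart.

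**Figure D1:**
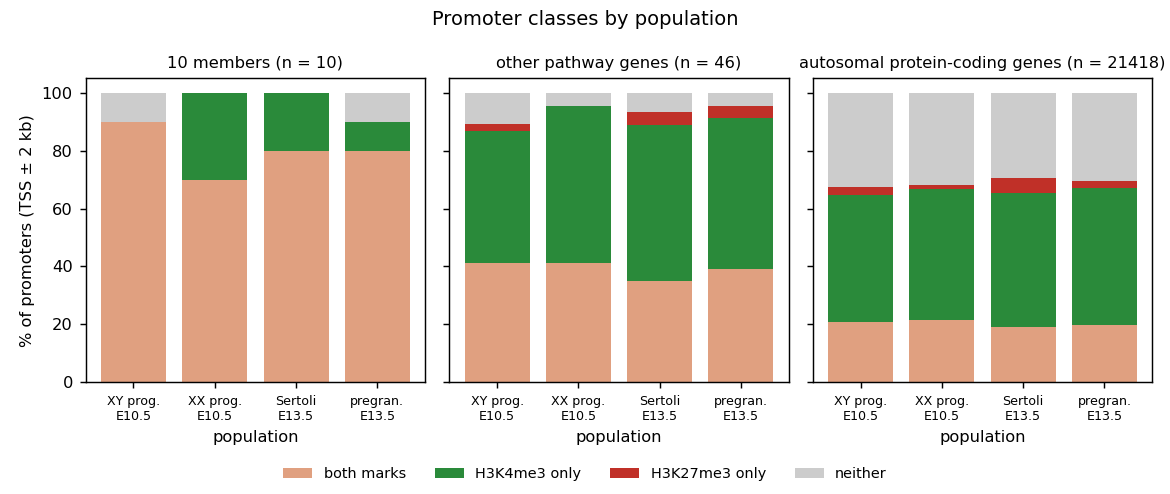
Percent of promoters (vertical axis) with both marks, H3K4me3 only, H3K27me3 only or neither, in each population (horizontal axis), for the 10 Notch genes, 46 other pathway genes and 21418 autosomal protein-coding genes. Both marks were present at 7 to 9 of the 10 Notch genes, at 34.8% to 41.3% of the other pathway genes and at 19.2% to 21.4% of all genes.

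Of the 10 genes, 6 were bivalent in every population, as were 14.0% of all promoters. They were the ligands Jag2, Dll1 and Dll4 and the targets Hes1, Hey1 and Hey2. In Jag2, Dll1, Dll4 and Hey2 the H3K27me3 region covered the whole window in each population. Such full cover was usual where the mark was called. It was present at 6 of 9, 6 of 7, 6 of 8 and 5 of 8 Notch genes with H3K27me3. Of all autosomal protein-coding promoters with the mark, 63.3%, 71.2%, 71.6% and 73.7% had it. The start base itself was inside an H3K27me3 region at 7, 6, 7 and 6 of the 10 genes in XY progenitor, XX progenitor, Sertoli and pregranulosa cells, against 21.1%, 21.1%, 21.4% and 19.9% of all promoters. The genes whose calls differed between populations were the receptors Notch1, Notch2 and Notch3 and the ligand Jag1.

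**Figure D2:**
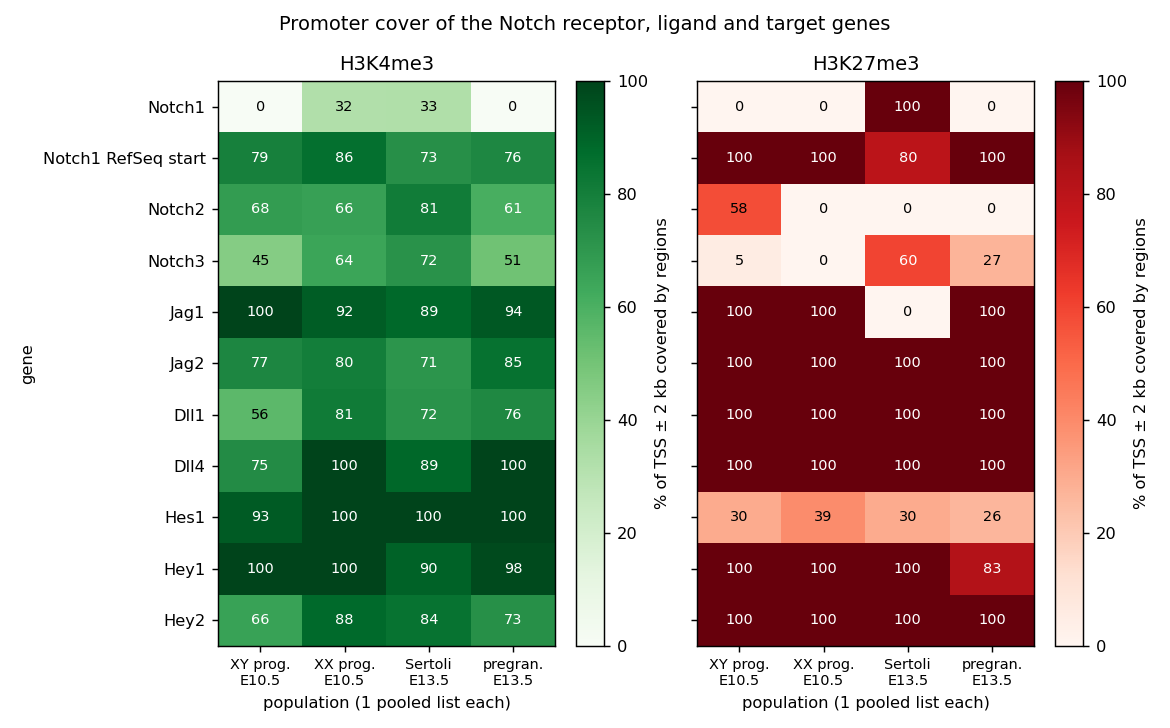
Percent of the TSS ± 2 kb window covered by H3K4me3 regions (left, green) and H3K27me3 regions (right, red) for each Notch gene (rows) in each population (columns), from 1 pooled list per column and mark. Notch1 has an extra row for its RefSeq start. Jag1 stands at 100% H3K27me3 in 3 populations and 0% in Sertoli cells, while its H3K4me3 stays between 88.6% and 100%.

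Sequence upstream of the start is shown for 4 genes that show the range of patterns. Jag1 lacked H3K27me3 in a single population, Notch1 has separate starts with different marks, Notch2 was nearly free of H3K27me3, and Hey2 was bivalent throughout. The sequences are those of RefSeq (table of GRCm38.p6), 8 of the 10 genes had an entry, and each was placed on mm9 by an exact match. They run 5′ to 3′ on the gene's strand and end before the first annotated exon base, and capitals mark CG dinucleotides. Notch1 is the exception, since its sequence ends before the RefSeq start. That start lies inside the gene record, 12841 bp downstream of where the record begins.
Jag1, chr2:136942381-136942506, minus strand: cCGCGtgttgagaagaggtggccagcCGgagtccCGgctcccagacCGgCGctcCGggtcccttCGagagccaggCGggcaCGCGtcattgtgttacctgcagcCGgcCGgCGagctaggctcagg
Notch1, chr2:26359345-26359592, minus strand: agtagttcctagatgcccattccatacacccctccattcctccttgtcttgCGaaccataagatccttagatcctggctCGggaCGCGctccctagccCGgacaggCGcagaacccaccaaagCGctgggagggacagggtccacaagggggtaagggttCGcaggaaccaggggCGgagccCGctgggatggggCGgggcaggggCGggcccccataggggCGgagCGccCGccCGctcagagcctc
Notch2, chr3:97817211-97817460, plus strand: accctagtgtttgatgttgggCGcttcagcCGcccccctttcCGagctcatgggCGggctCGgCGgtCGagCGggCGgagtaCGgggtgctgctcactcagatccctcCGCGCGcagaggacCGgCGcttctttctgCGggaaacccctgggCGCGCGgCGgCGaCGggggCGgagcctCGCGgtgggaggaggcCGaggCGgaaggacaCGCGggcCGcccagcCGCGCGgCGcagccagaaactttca
Hey2, chr10:30562608-30562839, minus strand: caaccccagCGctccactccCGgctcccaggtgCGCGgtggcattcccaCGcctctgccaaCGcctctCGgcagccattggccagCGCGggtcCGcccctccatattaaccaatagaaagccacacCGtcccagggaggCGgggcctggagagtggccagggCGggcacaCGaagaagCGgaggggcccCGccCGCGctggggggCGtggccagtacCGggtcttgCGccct

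All of these promoters were rich in CG dinucleotides, whatever their H3K27me3. Over the 250 bases before the RefSeq start, the 9 promoters of the 8 matched genes (Dll1 has 2) held 13 to 54 CG dinucleotides with a median of 20, and the median of 32851 promoters in the table was 6. Notch2, with the least H3K27me3 of the 10 genes, held 34, and Jag1 held 20. The core of the RBPJ motif, GTGGGAA, was searched on both strands of the same 250 bases. It was found in 1 of the 9 promoters, that of Hey2 at position -207 on the opposite strand, which is the stretch ttcccaC of the Hey2 sequence above, and it was present in 5.42% of all promoters in the table.

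The calls of all 3 receptors differed between populations, and at Notch1 they depended on where the gene was taken to start. Notch1, the receptor best known from stem cells and blood formation, lies on the minus strand of chr2:26313423-26372183 (ENSMUSG00000026923.8). Its gene record begins with a long transcript, and the RefSeq start lies 12841 bp further downstream. At the start of the gene record H3K4me3 covered 1294 bp in XX progenitors and 1304 bp in Sertoli cells, and 0 bp in XY progenitors and pregranulosa cells. H3K27me3 covered the whole window in Sertoli cells and 0 bp in the other 3 populations. This upstream start was thus marked by a short H3K4me3 region in one population of each sex, and by H3K27me3 in Sertoli cells only. The H3K27me3 call ended when the widest 75% of regions or lists of equal length were used. Both H3K4me3 calls ended when 2000 bp inside 1 listed peak was required. Regions of 1294 and 1304 bp cannot meet that requirement, so its outcome here was fixed by their width.

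The RefSeq start of Notch1 gave a different picture, with both marks in every population. H3K4me3 covered 3164, 3423, 2935 and 3050 bp of the window around it in XY progenitor, XX progenitor, Sertoli and pregranulosa cells, and H3K27me3 covered 4001, 4001, 3200 and 4001 bp. The width of the H3K27me3 region at this start was 10335, 8813, 8991 and 12764 bp in the same order. In Sertoli cells the region lay mostly upstream, from -7791 to 1199 bp around the RefSeq start, while in pregranulosa cells it reached from -5569 to 7194 bp. With the RefSeq starts, 10, 8, 8 and 9 of the 10 Notch genes were bivalent in the 4 populations.

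**Figure D3:**
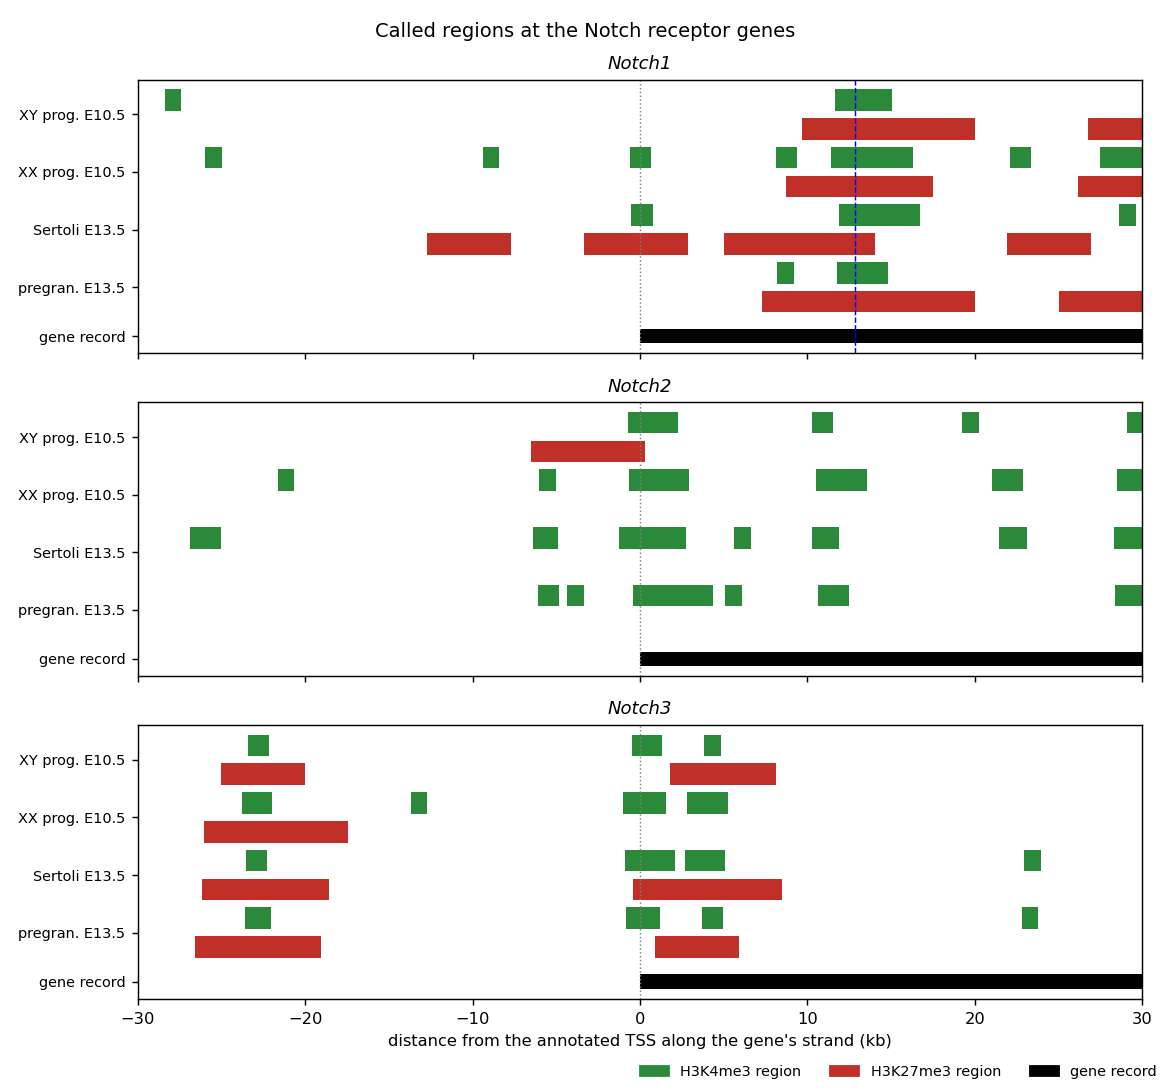
Called regions of H3K4me3 (green) and H3K27me3 (red) in the 4 populations around the receptors Notch1, Notch2 and Notch3, with distance from the start of the gene record along the gene's strand in kb on the horizontal axis. Black bars are the gene records, cut at 30 kb, and the blue dashed line marks the RefSeq start of Notch1, where all 4 populations have both marks. Notch2 has H3K27me3 in XY progenitors alone.

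Notch2, the receptor of many epithelia and of the ovary's follicle cells, lies on chr3:97817461-97954290 (plus strand, ENSMUSG00000027878.9) and was close to free of H3K27me3. H3K4me3 covered 2733, 2659, 3237 and 2437 bp of its window. H3K27me3 covered 2306 bp in XY progenitors, in a region that ran from -6510 to 305 bp, and 0 bp in XX progenitor, Sertoli and pregranulosa cells. In these 3 populations the nearest H3K27me3 region lay 118115, 38210 and 39659 bp upstream. The list with the region was also, of the 3 H3K27me3 lists with a known depth, the one called from the fewest tags, and the part of depth in this call was not tested. Over the gene body, H3K27me3 covered 0.224% in XY progenitors and 0% in the others.

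Notch3, a receptor of perivascular and mural cells, lies on chr17:32257765-32303825 (minus strand, ENSMUSG00000038146.7). H3K4me3 spanned its start in every population, with 1809, 2582, 2880 and 2038 bp. H3K27me3 lay downstream of the start and touched the window by 212 bp in XY progenitors, 0 bp in XX progenitors, 2403 bp in Sertoli cells and 1092 bp in pregranulosa cells. The start itself was inside an H3K27me3 region in Sertoli cells only, where the region ran from -402 to 8506 bp. The 2 marks shared 2403 bp in Sertoli cells and 284 bp in pregranulosa cells, and in XY progenitors they lay side by side with 0 bp shared.

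Among the ligands, Jag1 was the one whose promoter call differed between the E13.5 populations. Jag1, a ligand of the Jagged family, lies on chr2:136907192-136942380 (minus strand, ENSMUSG00000027276.7). H3K27me3 covered the whole window in XY progenitor, XX progenitor and pregranulosa cells and 0 bp in Sertoli cells. H3K4me3 covered 4001 bp in XY progenitors, 3674 bp in XX progenitors, 3544 bp in Sertoli cells and 3749 bp in pregranulosa cells, so the gene was bivalent in 3 populations and carried H3K4me3 alone in Sertoli cells. Of the 4110 promoters bivalent in both progenitor populations, 327 (7.96%) had this pattern, H3K27me3 absent from Sertoli cells and present in pregranulosa cells with H3K4me3 in both. The opposite pattern was present at 200 (4.87%), H3K27me3 was kept in both E13.5 populations at 3132 (76.2%) and it was absent from both at 447 (10.9%).

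The difference at Jag1 extended beyond the promoter. The H3K27me3 region at the start was 6544 bp wide in XY progenitors (-3094 to 3449 bp), 7507 bp in XX progenitors (-2745 to 4761 bp) and 18171 bp in pregranulosa cells (-8816 to 9354 bp). Pregranulosa cells had a further region of 15655 bp inside the gene, from 13106 to 28760 bp. Of the 35189 bp of the gene body, H3K27me3 thus covered 3450 bp (9.80%) in XY progenitors, 4762 bp in XX progenitors, 0 bp in Sertoli cells and 25010 bp (71.1%) in pregranulosa cells. In Sertoli cells the nearest H3K27me3 region was 399690 bp away, downstream of the start.

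**Figure D4:**
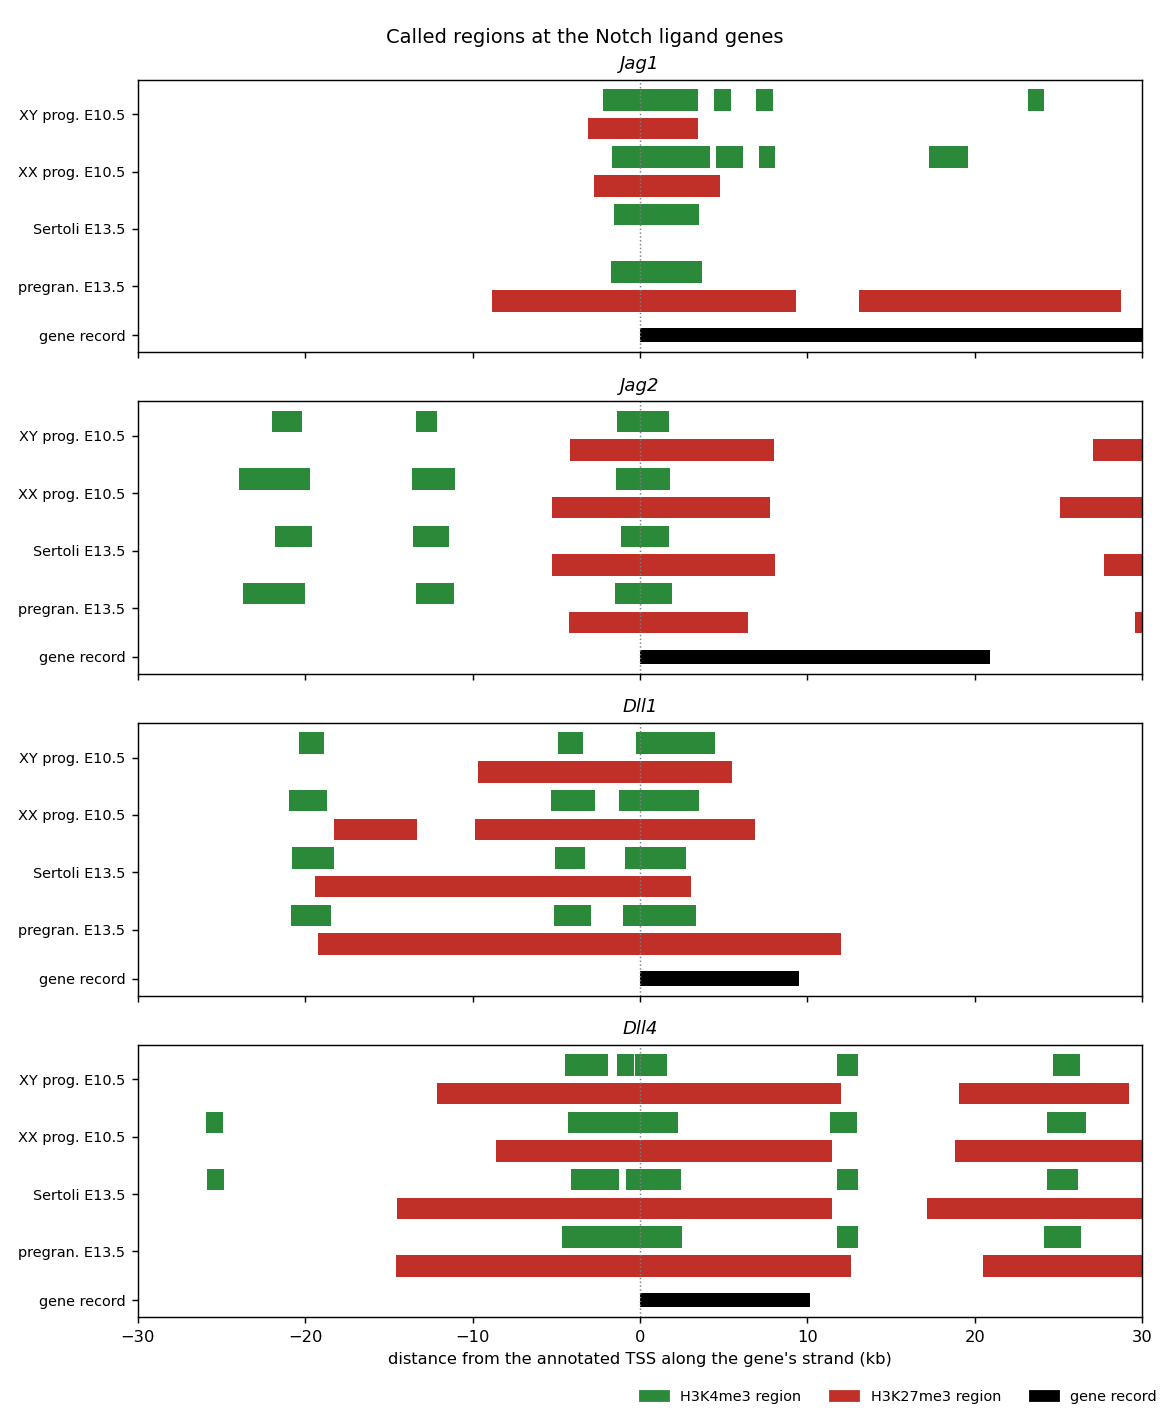
Called regions of H3K4me3 (green) and H3K27me3 (red) in the 4 populations around the ligands Jag1, Jag2, Dll1 and Dll4, with distance from the TSS along the gene's strand in kb on the horizontal axis and the gene record in black, cut at 30 kb. Sertoli cells have no H3K27me3 region in the Jag1 panel, and pregranulosa cells have 2 there. The other ligands have H3K27me3 across the start in all 4 populations.

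The other ligands kept both marks in every population. Jag2, the second Jagged ligand, lies on chr12:114146801-114167706 (minus strand, ENSMUSG00000002799.5) and varied little. Its H3K4me3 covered 3067, 3218, 2834 and 3393 bp, and its H3K27me3 region was 12227, 13041, 13349 and 10686 bp wide. H3K27me3 covered 38.4%, 37.2%, 38.7% and 30.9% of its gene body.

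Dll1, a Delta ligand known from somite formation, lies on chr17:15504318-15513836 (minus strand, ENSMUSG00000014773.7), and the start of another gene, A930024N18Rik, falls in its window. Its H3K4me3 covered 2227, 3252, 2877 and 3031 bp. The H3K27me3 region was 15157 bp wide in XY progenitors, 16682 bp in XX progenitors, 22455 bp in Sertoli cells and 31251 bp in pregranulosa cells. Both E13.5 regions began at a similar distance upstream, at -19416 and -19254 bp, and they differed inside the gene. The Sertoli region ended at 3038 bp and covered 31.9% of the gene body, whereas the pregranulosa region ended at 11996 bp and covered 100%, with 57.8% and 72.0% in XY and XX progenitors.

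Dll4, the Delta ligand of arteries and sprouting vessels, lies on chr2:119151520-119161698 (plus strand, ENSMUSG00000027314.6), with the start of Gm14207 in its window. It was the most fully covered of the 10 genes, since H3K27me3 lay over the whole window and 100% of the gene body in all 4 populations, in regions of 24113, 20094, 25977 and 27197 bp. H3K4me3 covered 2996, 4001, 3547 and 4001 bp of the window inside these regions. All of its H3K4me3 bases in the window were shared with H3K27me3.

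The targets kept the same calls throughout, and Hes1 was unlike Hey1 and Hey2. Hes1, a repressor that maintains progenitor states, lies on chr16:30064470-30067882 (plus strand, ENSMUSG00000022528.7). Its H3K4me3 regions were 8650, 9245, 9297 and 9350 bp wide and covered 100% of the gene body in every population. H3K27me3 covered 1197, 1574, 1202 and 1061 bp of the window, all upstream, and ended at -804, -427, -799 and -940 bp. The start itself lay outside H3K27me3 in all 4 populations, and H3K27me3 covered 0% of the gene body. Hes1 was the only one of the 10 genes marked in all 4 populations whose start was outside the region each time, so its bivalent call describes the 5′ flank.

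The upstream region of Hes1 differed in width between populations. It was 6299 bp in XY progenitors, 8109 bp in XX progenitors and 5001 bp in pregranulosa cells. In Sertoli cells 40 listed peaks joined into a region of 64440 bp, from chr16:29999232-30063671, which ranked 115 by width among 13313 Sertoli regions. The start of 1 annotated gene, the long noncoding RNA 4632428C04Rik, lay inside it. In the other populations the same stretch was partly covered by separate regions within 30 kb of Hes1, as the plot of the target genes shows.

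**Figure D5:**
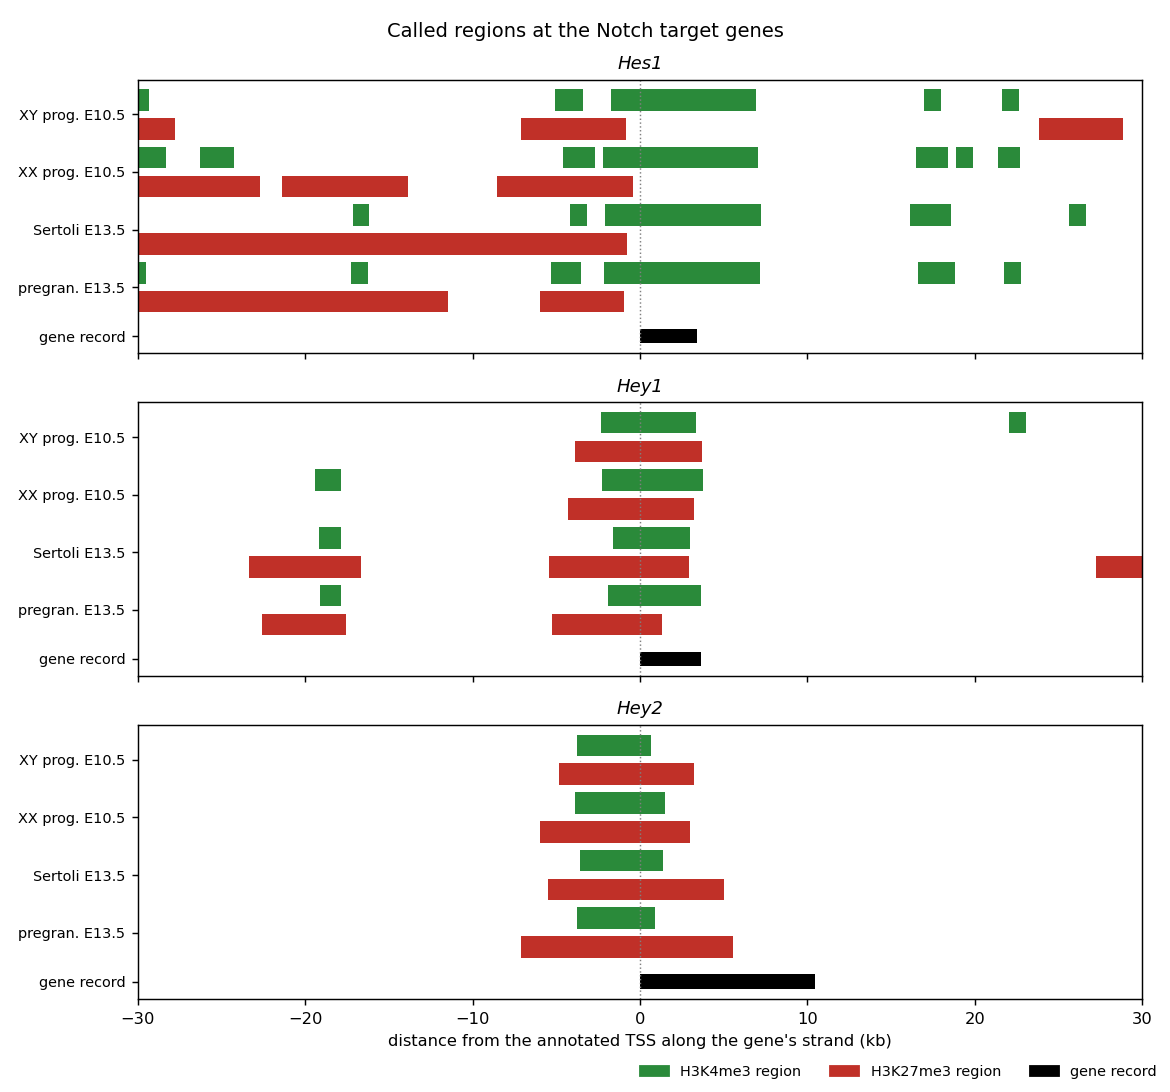
Called regions of H3K4me3 (green) and H3K27me3 (red) in the 4 populations around the targets Hes1, Hey1 and Hey2, with distance from the TSS along the gene's strand in kb on the horizontal axis and the gene record in black. At Hes1 the H3K27me3 regions stop upstream of the start, and the Sertoli region, 64440 bp wide, runs past the left edge. At Hey1 and Hey2 both marks span the start in all 4 populations.

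Hey1 and Hey2, repressors that act downstream of Notch in heart and vessels, carried both marks across the start. Hey1 lies on chr3:8663362-8667039 (minus strand, ENSMUSG00000040289.3), with H3K4me3 over 4001, 4001, 3611 and 3907 bp and H3K27me3 over 4001, 4001, 4001 and 3308 bp. The share of the Hey1 gene body under H3K27me3 was 100% in XY progenitors, 88.4% in XX progenitors, 79.7% in Sertoli cells and 35.6% in pregranulosa cells. In the pregranulosa list the region ended at 1307 bp, short of the end of the gene, and in XY progenitors at 3710 bp.

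Hey2 lies on chr10:30552165-30562607 (minus strand, ENSMUSG00000019789.8) and went the other way in the pregranulosa list. Its H3K4me3 covered 2642, 3517, 3379 and 2913 bp, and its H3K27me3 region was 8098, 8994, 10564 and 12669 bp wide. H3K27me3 covered 31.1% and 28.8% of the Hey2 gene body in XY and XX progenitors, 48.3% in Sertoli cells and 53.1% in pregranulosa cells. Its H3K4me3 region lay mostly upstream, for example from -3762 to 641 bp in XY progenitors.

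Counted as changes between populations, few calls differed. From XY progenitor to Sertoli cells, H3K27me3 was absent at 2 of the 9 genes that had it (Notch2 and Jag1), while 22.4% of all promoters with the mark lacked it in Sertoli cells. It appeared at 1 of 1 gene without it, Notch1 at the gene record start, against 7.68% of all promoters. H3K4me3 appeared at 1 of 1 gene, again Notch1, against 7.96%, and was missing at 0 of 9 (3.23% of all promoters). From XX progenitor to pregranulosa cells, 0 of 7 genes lost the H3K27me3 call (18.5% of all promoters did), 1 of 3 gained it (Notch3, against 4.43%), and 1 of 10 lost the H3K4me3 call (Notch1, against 2.16%). These counts are small, and they rest on single lists and on no test.

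Between the sexes, Sertoli and pregranulosa cells differed at H3K27me3 in 1 gene each way. Notch1 at the gene record start was marked in Sertoli cells alone, 1 of 8 genes, where 21.1% of all promoters with the mark in Sertoli cells lacked it in pregranulosa cells. Jag1 was marked in pregranulosa cells alone, 1 of 2 genes unmarked in Sertoli cells, against 3.90% of all promoters. The H3K4me3 call differed at 1 of 10 genes, Notch1 at the gene record start (1.62% of all promoters). The progenitor lists differed at H3K27me3 in 2 of 9 genes, Notch2 and Notch3, both called in the XY and not in the XX list (9.84% of all promoters), and at H3K4me3 in Notch1, called in the XX list alone (8.09% of promoters unmarked in the XY list). In the other direction the H3K27me3 call appeared in the XX list at 0 of 1 gene (2.03% of all promoters) and the H3K4me3 call was missing from it at 0 of 9 (1.51%).

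Where H3K27me3 was called in both populations compared, the widths of the regions at the Notch genes were set beside those of all promoters. From XY progenitor to Sertoli cells the region was wider at 7 of 7 genes with a median ratio of 1.30 and up to 10.2 at Hes1, while it was wider at 77.5% of 3927 autosomal promoters with a median of 1.27. From XX progenitor to pregranulosa cells it was wider at 4 of 7 genes (Jag1, Dll1, Dll4 and Hey2), with a median of 1.35 against 1.12 and 67.5% of 3991 promoters. The ratios ran from 0.617 at Hes1 to 2.42 at Jag1. From Sertoli to pregranulosa cells the region was wider at 3 of 7 genes (Dll1, Dll4 and Hey2), with a median ratio of 0.801, against 33.4% of 4090 promoters and a median of 0.930. Depth differed between the lists with a known depth, and its part in these widths was not tested. The pregranulosa list has no known depth or peak settings and held no overlapping peaks. How its regions were formed is unknown, so the ratios to pregranulosa cells may not compare like widths.

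The other genes of the pathway are given by role, without a test between roles. Of 46 such genes, H3K4me3 was called at 40, 44, 41 and 42 in the 4 populations (64.8%, 66.7%, 65.5% and 67.0% of all promoters). H3K27me3 was called at 20, 19, 18 and 20 (23.6%, 22.8%, 24.2% and 22.1% of all promoters). Both were called at 19, 19, 16 and 18 (20.9%, 21.4%, 19.2% and 19.6%). The 4 other ligands and ligand-like genes, Dll3, Dlk1, Dlk2 and Dner, were bivalent in all 4 populations (14.0% of all promoters were), with 3960 to 4001 bp of H3K27me3. Of the 6 other Hes and Hey targets, H3K27me3 covered Hes2, Hes3, Hes7 and Heyl over the whole window in each population, and Hes5 over 1669 bp in Sertoli cells and 4001 bp in the rest. Hes6, which differs from its relatives in that it promotes differentiation, had 3794 and 3992 bp in XY and XX progenitors and 0 bp in both E13.5 populations, with 2562 to 3189 bp of H3K4me3 throughout.

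The counts for the machinery of the pathway are read beside the 22.1% to 24.2% of all promoters with H3K27me3, and with so few genes they cannot be set apart from it. Of 9 genes of the nuclear complex, which includes RBPJ and the Mastermind coactivators, 1 had H3K27me3 in each population, Rbpjl, a tissue-restricted relative of RBPJ. Rbpj and Maml2 had 0 bp of either mark at the start of the gene record. In XX progenitors they were the only other pathway genes without H3K4me3. The count with H3K4me3 there rose from 44 to 45 when every coding TSS of a gene was used. At least 1 of them thus had H3K4me3 at another annotated start, so 0 bp at the gene record start does not describe the whole gene. Of 9 protease genes, which cut the receptor, 1, 1, 0 and 2 had H3K27me3. Aph1c, a part of γ-secretase, had 4001 bp in both progenitor populations and in pregranulosa cells and 0 bp in Sertoli cells, as Jag1 did. Psen2, the second presenilin, had 1380 bp in pregranulosa cells and 0 bp in the others.

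Of 12 genes of ligand and receptor trafficking and turnover, 6, 5, 5 and 5 carried H3K27me3. All 12 carried H3K4me3, as did 64.8% to 67.0% of all promoters. Dtx4, a ubiquitin ligase of the Deltex family, had 3160 bp and 4001 bp of H3K27me3 in XY and XX progenitors, 0 bp in Sertoli cells and 3907 bp in pregranulosa cells. Mib1, the ubiquitin ligase that drives ligand uptake, showed 1613 bp in XY progenitors, 3110 bp in Sertoli cells and 0 bp in both XX populations. Of 5 glycosyltransferase genes, 2 had H3K27me3 in every population, Lfng (3663 to 4001 bp), whose product modifies the receptor, and Poglut1 (321 to 1977 bp). Notch4, the receptor of endothelial cells, had 0 bp in both progenitor populations, 4001 bp in Sertoli cells and 3600 bp in pregranulosa cells, and its H3K4me3 was called in XX progenitors alone (1512 bp).

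Over the 8 lists, the gene with cover most like each Notch gene was found by the mean absolute difference in covered bases within TSS ± 10 kb. For Jag1 it was Pappa, with a mean difference of 1679 bp, the least close match of the 10. Dll4 was matched most closely, by Gm6320 (444 bp), then Notch2 by Cyth3 (467 bp), Jag2 by Htra1 (518 bp), Hey1 by Klf10 (554 bp) and Hey2 by C2cd4a (594 bp). Notch1 was nearest to 1700092K14Rik (694 bp), Hes1 to C030046I01Rik (863 bp), Notch3 to Sfswap (920 bp) and Dll1 to Hist3h2ba (1016 bp). The median difference to all other genes ranged from 3138 bp for Notch1 to 11192 bp for Dll4.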

How the data were processed

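H3, H3K4me3 and H3K27me3 ChIP-seq had been done in duplicate in 4 sorted mouse gonadal populations. According to the labels and the study's methods, the authors trimmed reads with Trim Galore and used Bowtie for alignment to mm9. They called peaks by HOMER findPeaks in histone style against H3. Per the headers of 6 lists, H3K4me3 peaks had a size setting of 1000 bp and H3K27me3 peaks one of 5000 bp, both with a fold of at least 4 against H3 and 4 against the surroundings and a Poisson threshold of 0.0001. The other 2 lists have no header. The score that the authors deposited with each peak is the same throughout a list, so the presence and extent of peaks were used and no level. Overlapping peaks within a list were joined. Starts were converted so that positions count from 1.

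TSS and gene bodies came from GENCODE M1 (NCBIM37), RefSeq promoter sequences from a table of GRCm38.p6. Promoter windows were TSS ± 2 kb. The share of 21418 autosomal protein-coding genes with the same call is given as background. No test was run, because each condition has 1 list pooled from 2 replicates, and precision between replicates is unknown. The 10 genes, the 46 pathway genes and the markers were chosen with earlier results of these data known. Of the 46, those whose H3K27me3 call differed in a developmental or sex comparison, and every receptor, ligand and Hes or Hey gene, were named by rule. Lfng, Poglut1, Rbpjl, Rbpj and Maml2 were named after their values were seen. Alternatives changed the overlap, the window, the start, the peak set and the joining of peaks. The overlap and counting steps were tested on simulated data. Python 3.11.15, NumPy 2.4.6 and matplotlib 3.10.9 were used.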

Additional observations from a re-analysis of the deposited data

Results flagged for a closer look

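The H3K4me3 call at the gene record start of Notch1 moved in opposite directions in the 2 sexes. Cover went from 0 bp in XY progenitors to 1304 bp in Sertoli cells, and from 1294 bp in XX progenitors to 0 bp in pregranulosa cells. With 1 pooled list per population the difference was not tested. The H3K4me3 lists were called from 10162534 tags in XY progenitors, 49254553 in XX progenitors and 31104760 in Sertoli cells. The depth of the pregranulosa list is unknown. Both missing calls thus fell in the list with the fewest known tags and in the list of unknown depth, and the part of depth was not tested. At the RefSeq start of Notch1, 12841 bp downstream, H3K4me3 was called in all 4 populations.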

How the results depend on the processing

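Of the 80 calls of a mark at a Notch gene in a list, 80 were the same with regions within 1 kb merged, 79 with at least 500 bp covered, 79 with TSS ± 1 kb, 77 with the widest 75% of regions, 77 with lists of equal length, 75 with every coding TSS of a gene, 75 with the RefSeq starts (an alternative chosen after seeing the data), 74 with the start base inside a region and 70 with 2000 bp inside 1 listed peak. The last depends on the list, since the pregranulosa H3K27me3 peaks do not overlap each other. The Jag1 calls were the same in each of these. Counts of Notch genes bivalent in a population stayed within 1.5 times. Some fell and some stayed the same, and with every coding TSS or the RefSeq starts they became 10, 8, 8 and 9. From 9, 7, 8 and 8 they became 7, 6, 7 and 6 with the start base inside a region. With 2000 bp inside 1 listed peak they were 6 in each population. The genes counted were not the same, since Jag1 was bivalent in every population but Sertoli cells. Hes1, with 1061 to 1574 bp of H3K27me3 in its window, cannot meet that requirement. Beyond 1.5 times, the counts of Notch genes that moved were those whose call differed between populations, which are small. With every coding TSS or the RefSeq starts, in which Notch1 is bivalent in all 4 populations, the H3K4me3 changes at Notch1 (XY progenitor to Sertoli, XX progenitor to pregranulosa, Sertoli to pregranulosa, XY to XX progenitor) its H3K27me3 gain in Sertoli cells and its H3K27me3 in Sertoli against pregranulosa cells all went from 1 to 0. H3K27me3 gained from XY progenitor to Sertoli cells became 2 with 500 bp, with TSS ± 1 kb, with the start base and with 1 listed peak, and 0 with the widest 75% and with equal lists. From XX progenitor to pregranulosa cells, the H3K27me3 loss became 1 with the widest 75% and equal lists, and the gain became 0 with these, the start base and 1 listed peak. Sertoli-only H3K27me3 against pregranulosa cells became 2 with the start base, the widest 75%, equal lists and 1 listed peak. H3K27me3 called in XY and not in XX progenitor cells became 1 with 500 bp, TSS ± 1 kb, the start base and 1 listed peak. With 2000 bp inside 1 listed peak, H3K4me3 gains from XY progenitor cells to Sertoli and to XX progenitor cells became 2. The H3K4me3 losses to pregranulosa cells became 0, an outcome fixed by the width of the Notch1 regions (1294 and 1304 bp). The other pathway genes in XY progenitor cells fell to 26 with H3K4me3 and 8 with both marks. Outside TSS ± 2 kb, the median H3K4me3 cover of the gene body was 5.96%, 14.9%, 8.82% and 6.84% in the 4 populations, against 11.9%, 23.5%, 14.2% and 10.6% over the whole record.

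No paired analysis was possible because each list pools both replicates, and no list without a given replicate was used here. The lists differ in depth, the XY progenitor lists have the fewest tags of those with a known depth, and the depth of the pregranulosa lists is unknown, so a missing call does not show that a mark was absent.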

Other observations

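Several Notch genes had H3K27me3 regions nearby that lay outside both the promoter window and the gene. Downstream of Jag2, a region of 8785 to 15630 bp was called in all 4 populations, and downstream of Dll4 a region of 10165 to 13642 bp. Upstream of Notch3, a further region was present in all 4 populations, including the XX progenitor list, in which the promoter had none and the nearest region lay 17411 bp upstream. Upstream of Hey1, Sertoli cells had a region of 6680 bp and pregranulosa cells one of 5001 bp, and neither progenitor list had a region there within 30 kb.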
